A study of Mus musculus with 10 samples.

Results

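Apoptosis is run by a small set of gene products, and 32 mouse genes of that machinery were followed here in the adult hippocampus with and without the kinase DLK. They are 9 genes of the BH3-only group, 4 anti-apoptotic BCL2 genes, 4 effectors or effector-like genes, 4 caspases with the caspase activator Apaf1, 6 genes for mitochondrial factors and nucleases, 3 inhibitors of apoptosis, and Trp53. The genes were found through the RefSeq accession that the scanner files give for each probe, and the probe with the highest mean log intensity of both channels stood for a gene with several. Of these 32 genes, 30 had a probe well above background in the hippocampus channel on at least 5 of the 10 arrays, among 23574 features tested. Bik and Bcl2l11 did not reach that level.

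The arrays held hippocampal RNA of 5 wild-type mice (WT) and 5 mice with a conditional knockout of DLK (cKO). DLK, dual leucine zipper kinase, is the product of the gene Map3k12. Both genotypes ate tamoxifen-containing food for 3 weeks before dissection, so the drug is shared by all mice. The labels call the tissue adult; the age, the sex, the recombinase with its promoter and the deleted exons were not given in the sources used. Each array is taken as 1 mouse, since the titles carry a different animal number. Hippocampal RNA was labelled with Cy5 and a commercial pool of mouse RNA, the Universal mouse reference, with Cy3. A log ratio below is log2 of Cy5 over Cy3, so 0 means equal signal in hippocampus and reference. The dyes were not swapped, and the dye effect and the make-up of the pool are part of every level but shared by both genotypes.

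In the mitochondrial pathway, BH3-only proteins sense stress and bind the anti-apoptotic BCL2 proteins, which otherwise hold the effectors BAX and BAK in check. Active effectors open the outer mitochondrial membrane, cytochrome c leaves and joins APAF1 in the apoptosome, and initiator caspases then activate executioner caspases. In neurons DLK is best known as an upstream kinase of JNK and the transcription factor Jun in axon injury and trophic factor withdrawal, where BH3-only genes such as Bbc3 and Hrk are among the transcripts that respond.

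Median spot intensity ranged from 146 to 202 in Cy5 and from 131.5 to 141.5 in Cy3, and log ratios of any 2 arrays correlated at 0.98 to 0.996 across features. Map3k12 checked the labels: its log ratio was 1.93 ± 0.19 (SD, n = 5) in WT, between 1.74 and 2.15, and 0.51 ± 0.24 (SD, n = 5) in cKO, between 0.11 and 0.68. The difference was −1.41 (SE 0.12, limma adjusted p = 0.000975), with an exact two-sided permutation p of 0.00794, the smallest that 5 against 5 allows. Its single probe cannot be placed relative to the deleted exons. Markers of hippocampal principal cells had mean log ratios of 2.96 to 3.29 in WT and 3.00 to 3.31 in cKO. General neuron markers lay at 4.77 to 4.90 in WT and 4.87 to 5.07 in cKO, with 7 of 7 higher on average in cKO, as were 7 of 7 interneuron markers. All 11 marker lists had a higher mean in cKO, by 0.03 to 0.76. The largest of these differences was in choroid plexus and ependyma. All 14 measured markers of choroid plexus and ependyma were higher on average in cKO, with mean log ratios of 0.48 to 1.33 in WT and 1.25 to 2.47 in cKO. Of 15 oligodendrocyte markers 13 were higher on average, with means of 2.56 to 2.98 in WT and 2.99 to 3.32 in cKO. None of the 32 genes is in a marker list, and the part of tissue make-up in the differences below was not tested. In whole tissue, fewer cells of a type and less RNA per cell cannot be told apart.

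None of the 30 measured genes passed the genotype test. With limma and Benjamini-Hochberg adjustment over all features, 0 of 30 were under an adjusted p of 0.05, against 1 of 23574 features, 0.00424%, that feature being Map3k12. At an unadjusted p under 0.05 there was 1 gene with a higher mean in cKO, Bmf, where the share of all features was 2.83%. There was also 1 with a lower mean, Apaf1, where that share was 1.03%. For 0 of the 30 did the 5 WT and 5 cKO values fail to overlap, a separation that 0.53% of all features showed upwards and 0.246% downwards. The differences, cKO minus WT, ran from −0.27 to 0.19 on the log2 scale, 16 above 0 and 14 below, with a median of 0.011 beside 0.008 for all features. Their median size without sign was 0.044, beside 0.046 for all features, and the median standard error was 0.068.

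The intervals show how large a difference these arrays leave room for in the fit without slide. The 95% interval of the difference lay within 1.5-fold in either direction for 30 of 30 genes and within 1.2-fold for 22. Across all features 98.5% and 69.9% had intervals that narrow. These intervals cover each gene alone and are not adjusted for their number. They also take no account of slide, which was largely mixed with genotype. With slide as a fixed block the differences ran from −0.23 for Bok to 0.29 for Bmf, and intervals from that fit are not given here.

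**Figure D1:**
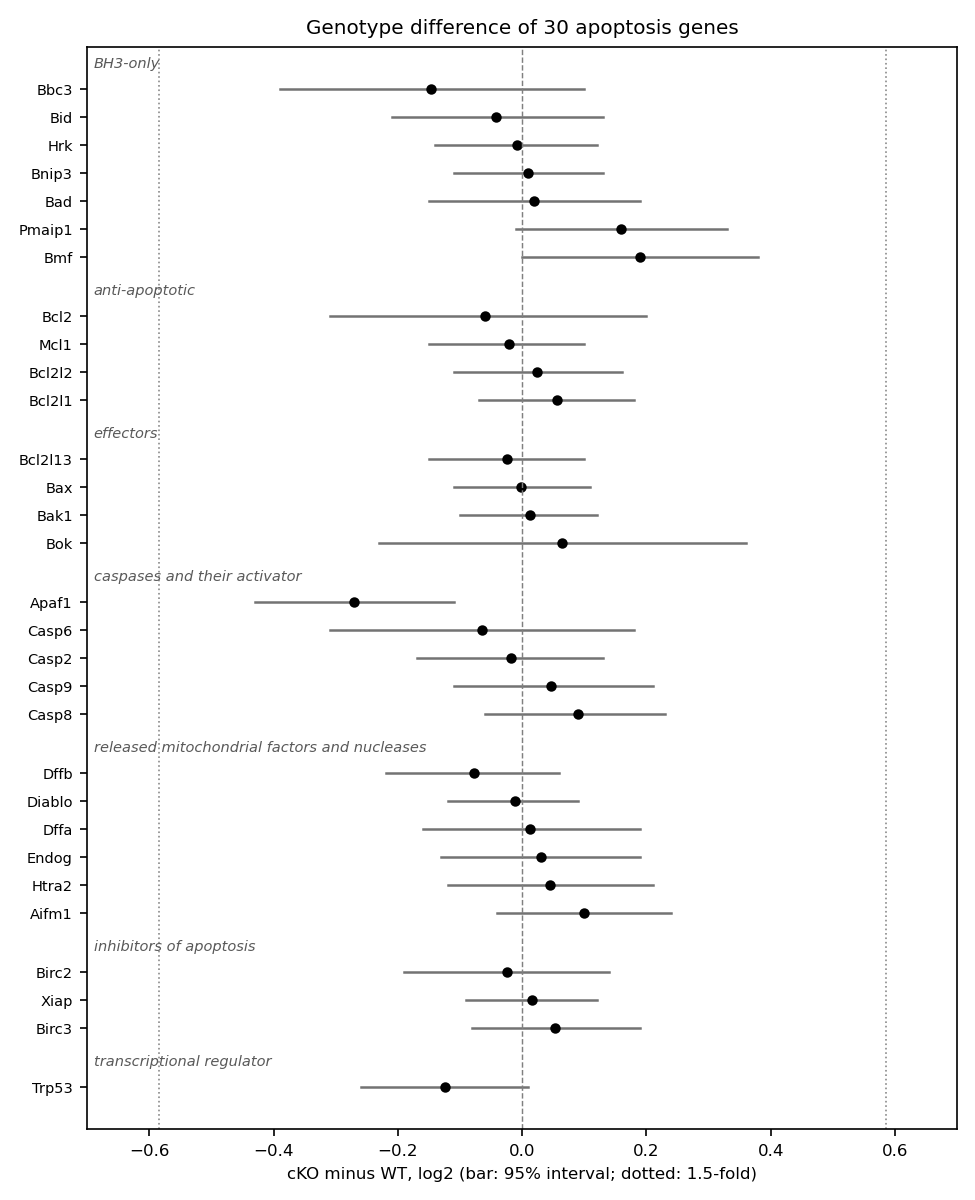
Difference between cKO and WT hippocampus (log2, x axis) for each of the 30 measured genes, ordered by role (y axis); points are fitted differences, bars their 95% intervals, and dotted lines mark 1.5-fold. Every interval stays inside the dotted lines, and the points run from −0.27 for Apaf1 to 0.19 for Bmf. The fit has no slide term.

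**Figure D2:**
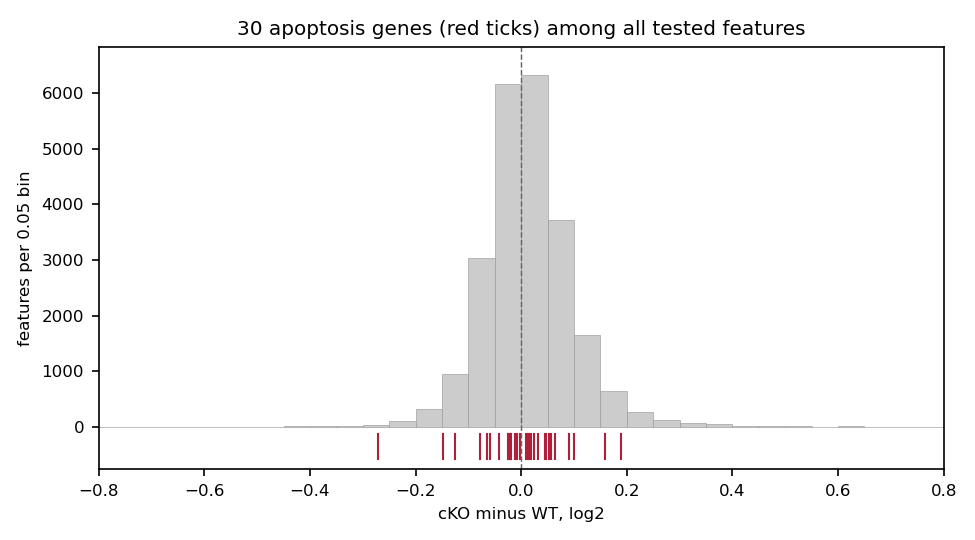
Number of features (y axis) by difference between cKO and WT (log2, x axis, bins of 0.05), with the 30 genes as ticks; 13 features beyond 0.8 in either direction are not drawn. Most ticks lie close to 0, and Apaf1 at −0.27 lies in the lower tail.

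Apaf1 encodes the scaffold of the apoptosome, on which caspase-9 is activated. Its log ratios were −0.71, −0.52, −0.37, −0.52 and −0.48 in WT and −0.71, −0.77, −0.67, −0.84 and −0.97 in cKO. In cKO, 4 of 5 arrays lay below every WT array, replicate 1 by less than the digits shown. The groups overlapped through WT replicate 1 at −0.71 and cKO replicate 3 at −0.67. The means were −0.52 ± 0.12 (SD, n = 5) and −0.79 ± 0.12 (SD, n = 5), and the difference was −0.27 (SE 0.07, 95% interval −0.43 to −0.11, limma unadjusted p = 0.00318). In linear terms the cKO ratio was 82.9% of WT, with an interval of 74.1% to 92.7%. Apaf1 ranked 58 of 23574 features by p, and its adjusted p was 0.99995, so it did not pass. Raw Cy5 intensity was 488.5 to 633.5 in WT and 309.5 to 513.5 in cKO, against 638 to 747 for the reference. On the only slide that held both genotypes, with 3 WT arrays and 1 cKO array, the difference was −0.19.

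The 4 caspases of the list had overlapping values in both genotypes, each with a limma adjusted p of 0.99995. Casp9, the initiator that APAF1 recruits, had log ratios of 0.93 ± 0.06 (SD, n = 5) in WT, against 0.98 ± 0.16 (SD, n = 5) for cKO, and was the only one above the reference, at 1.91-fold in WT. Casp8, the initiator of the death receptor branch, lay at −2.67 ± 0.11 (SD, n = 5) and −2.58 ± 0.09 (SD, n = 5), so the reference signal was 6.35 times the WT hippocampal one; with the processed signals the WT value was −3.37. Casp2, an initiator linked to DNA damage and to neuronal trophic factor withdrawal, lay at −2.07 ± 0.06 (SD, n = 5) and −2.09 ± 0.14 (SD, n = 5). Casp6, which takes part in axon degeneration, lay at −1.96 ± 0.19 (SD, n = 5) and −2.03 ± 0.22 (SD, n = 5), and its single arrays ran from −2.25 to −1.68. With Apaf1, 4 of these 5 genes were below the reference on every array.

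BH3-only genes carry the stress signal, and 7 of 9 were measured. Bmf, whose product is tied to the cytoskeleton until stress frees it, had log ratios of −1.67, −1.68, −1.54, −1.63 and −1.62 in WT and −1.42, −1.37, −1.73, −1.49 and −1.17 in cKO. In cKO 4 arrays were above every WT array and the other, replicate 3, was below every WT array, so the 5 cKO values surround the WT ones. The means were −1.63 ± 0.06 (SD, n = 5) and −1.44 ± 0.20 (SD, n = 5), and the difference was 0.19 (SE 0.09, 95% interval 0.00 to 0.38, limma unadjusted p = 0.049, adjusted p = 0.99995), and it did not pass. Without cKO replicate 5 it was 0.12. The means of choroid plexus and ependyma markers were 1.14, 1.33, 1.16, 0.76 and 0.48 in WT and 1.25, 2.0, 1.32, 1.64 and 2.47 in cKO, in the same order of replicates. Bmf and these markers were both highest in cKO replicate 5, while cKO replicate 1 had the lowest cKO marker mean and a Bmf value above every WT array. That trait of cKO replicate 5 was not particular to these markers. It was also the highest array for oligodendrocytes, 3.32, astrocytes, 4.89, microglia, 2.53, and interneurons, 4.74. The same held for oligodendrocyte precursors, endothelium and meninges, but not for blood, general neurons or principal cells. Its median Cy5 was the lowest of all arrays, 146. The part of tissue make-up in the Bmf values was not tested.

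Pmaip1 encodes NOXA, a BH3-only protein that targets MCL1 and is a classic p53 target. It had log ratios of −2.29, −2.41, −2.49, −2.62 and −2.71 in WT and −2.24, −2.38, −2.40, −2.34 and −2.37 in cKO. The cKO arrays sat in the upper part of the WT range, with replicate 1 just above it, and varied less than the WT arrays. From means of −2.50 ± 0.16 (SD, n = 5) and −2.34 ± 0.06 (SD, n = 5), the difference was 0.16 (SE 0.08, 95% interval −0.01 to 0.33, limma unadjusted p = 0.0579, adjusted p = 0.99995). With slide as a fixed block it was 0.06, a value that rests on the 1 cKO array that shared a slide with WT arrays.

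Bbc3 encodes PUMA, the other well-known p53-induced BH3-only protein. Its log ratios were −0.47, −0.60, −0.66, −0.46 and 0.05 in WT and −0.55, −0.57, −0.68, −0.54 and −0.54 in cKO. Both groups covered the same range except for WT replicate 5, the only array above the reference. The means were −0.43 ± 0.28 (SD, n = 5) and −0.58 ± 0.06 (SD, n = 5). The difference of −0.15 (SE 0.11, 95% interval −0.39 to 0.10, limma unadjusted p = 0.212, adjusted p = 0.99995) rested on that array and was −0.03 without it. WT replicate 5 also had the lowest mean of choroid plexus and ependyma markers, 0.48, and of oligodendrocyte markers, 2.56. The same held for markers of astrocytes, 4.25, microglia, 2.05, and blood, 1.09. Among WT arrays it had the highest mean of general neuron markers, 4.90, and of hippocampal principal cell markers, 3.29. The part of tissue make-up in the Bbc3 values was not tested.

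**Figure D3:**
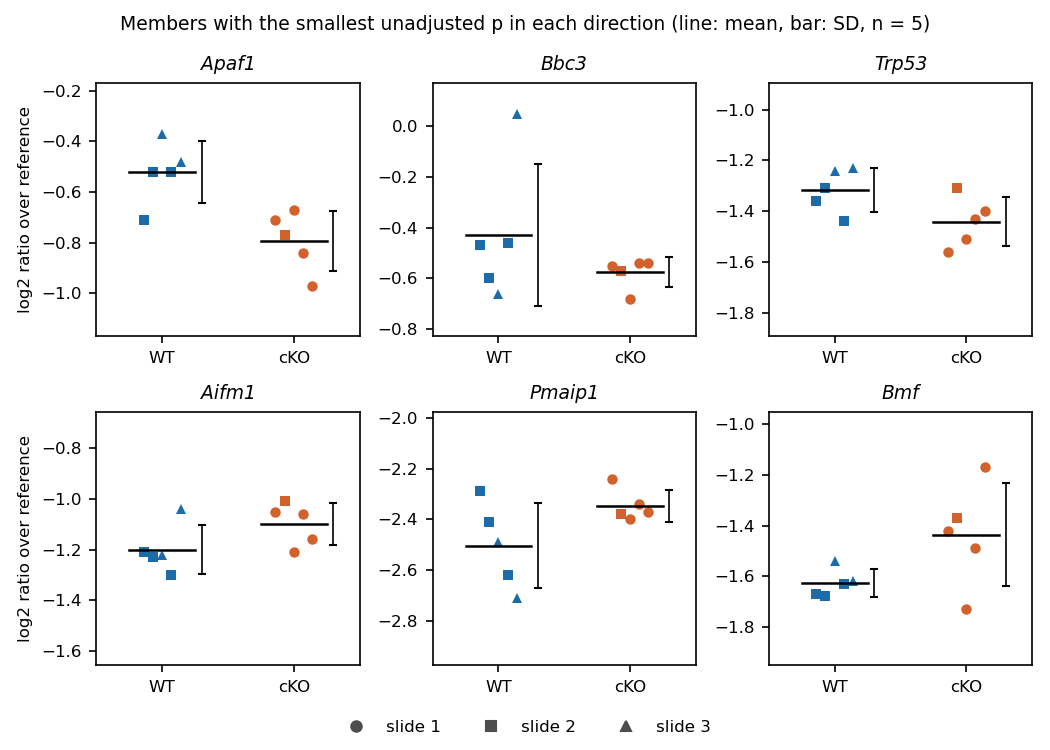
Log2 ratio of hippocampus over reference (y axis) on each array of the 5 WT and 5 cKO mice for the 3 genes with the smallest unadjusted p in each direction; points are single mice and the lines are group means. In every panel the WT and cKO points overlap, through WT replicate 1 and cKO replicate 3 for Apaf1, and through cKO replicate 3 for Bmf.

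The remaining BH3-only genes lay near each other in the 2 genotypes. Hrk, a BH3-only gene expressed mainly in neurons, had the highest ratio to the reference in the list, 18.2-fold in WT. Its arrays read 4.14, 4.13, 4.27, 4.25 and 4.14 in WT and 4.20, 4.04, 4.23, 4.12 and 4.29 in cKO, with means of 4.19 ± 0.07 (SD, n = 5) and 4.18 ± 0.10 (SD, n = 5). Of the cKO arrays 1 lay above and 2 below the WT range. With Cy5 taken alone the difference was −0.40 (limma unadjusted p = 0.00717), against −0.01 for the ratio; median raw Cy5 was 8299 in WT and 6285.5 in cKO. Bad, which growth factor signalling keeps phosphorylated and inactive, was near the reference at 0.15 ± 0.14 (SD, n = 5) and 0.17 ± 0.12 (SD, n = 5). Bid links death receptors to mitochondria once caspase-8 cuts it, and lay at −1.06 ± 0.18 (SD, n = 5) and −1.10 ± 0.05 (SD, n = 5). Bnip3, an atypical member that also serves as a mitophagy receptor, lay at −0.52 ± 0.08 (SD, n = 5) and −0.51 ± 0.06 (SD, n = 5).

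Bik and Bcl2l11, which encodes BIM, could not be compared. The Bcl2l11 probe read 38 to 44.5 in Cy5 and 105 to 123.5 in Cy3, and was well above background on 0 of 10 arrays in the hippocampus channel and on 10 of 10 in the reference channel. The Bik probe read 40 to 59 in Cy5 and 68 to 80 in Cy3, and was well above background on 1 WT and 0 cKO arrays in Cy5. Local Cy5 background was 29 to 31, so both are dim measurements and give no level for the genes in hippocampus.

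The anti-apoptotic genes hold the effectors back, and their products differ in which BH3-only proteins they bind. Bcl2l1, whose main product BCL-XL is prominent in mature neurons, had a WT log ratio of 1.94 ± 0.03 (SD, n = 4; the spot of WT replicate 2 was left out) and 2.0 ± 0.08 (SD, n = 5) in cKO, 3.84-fold above the reference in WT. Bcl2l2, encoding BCL-W, lay at 2.02 ± 0.10 (SD, n = 5) and 2.05 ± 0.08 (SD, n = 5), 4.07-fold in WT. Both were above the reference on every array with a value. Mcl1, encoding a short-lived protein bound by NOXA, was below it, at −0.95 ± 0.04 (SD, n = 5) and −0.97 ± 0.10 (SD, n = 5). Bcl2 itself crossed it, at −0.19 ± 0.28 (SD, n = 5) and −0.25 ± 0.12 (SD, n = 5), with WT replicate 4 at 0.26 and the other WT arrays at −0.48 to −0.17.

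Bax and Bak1 encode the pore-forming effectors and were among the most even genes of the list. Bax read −0.84, −0.98, −0.89, −0.83 and −0.92 in WT and −0.87, −0.96, −0.93, −0.89 and −0.83 in cKO, with full overlap and a pooled SD of 0.055. Bak1 lay at −1.63 ± 0.05 (SD, n = 5) and −1.62 ± 0.06 (SD, n = 5). Bok, a less studied relative of both, was 3.24-fold above the reference in WT and the least even gene of the list, at 1.70 ± 0.22 (SD, n = 5) and 1.76 ± 0.28 (SD, n = 5). Bcl2l13, an outer-membrane BCL2-like protein with a role in mitophagy, lay at 0.88 ± 0.09 (SD, n = 5) and 0.86 ± 0.05 (SD, n = 5). Of these 4 genes 2 were above and 2 below the reference on every array.

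Among the factors that act after the membrane opens, Aifm1 was named by the rule. Its product is a mitochondrial flavoprotein that can move to the nucleus and take part in caspase-independent DNA breakdown. It read −1.21, −1.23, −1.22, −1.30 and −1.04 in WT and −1.05, −1.01, −1.21, −1.06 and −1.16 in cKO. WT replicate 5 lay among the higher cKO arrays, so the groups overlapped. With means of −1.20 ± 0.10 (SD, n = 5) and −1.10 ± 0.08 (SD, n = 5), the difference was 0.10 (SE 0.06, 95% interval −0.04 to 0.24, limma unadjusted p = 0.135, adjusted p = 0.99995).

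The rest of that group lay closer together in WT and cKO. Diablo, the SMAC protein that frees caspases from their inhibitors, lay at −0.53 ± 0.03 (SD, n = 5) and −0.54 ± 0.06 (SD, n = 5). Htra2, a mitochondrial protease of like action, lay at −0.87 ± 0.15 (SD, n = 5) and −0.82 ± 0.07 (SD, n = 5). Endog, a mitochondrial nuclease, was 2.03-fold above the reference in WT, at 1.02 ± 0.11 (SD, n = 5) and 1.05 ± 0.13 (SD, n = 5). Dffb encodes the caspase-activated DNase and Dffa its chaperone and inhibitor, which caspases cut. The nuclease lay at −0.57 ± 0.11 (SD, n = 5) and −0.65 ± 0.08 (SD, n = 5), below the reference on every array. Its probe was dim, with Cy5 of 77 to 126, and the WT value was −1.08 with the processed signals. The inhibitor Dffa was above on every array, at 0.54 ± 0.13 (SD, n = 5) and 0.55 ± 0.13 (SD, n = 5).

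Inhibitors of apoptosis act on caspases directly or through ubiquitin. Xiap, the direct caspase inhibitor, was the most even gene of the list, at 0.75 ± 0.05 (SD, n = 5) and 0.76 ± 0.02 (SD, n = 5). Its pooled SD of 0.037 was at the 0.632 percentile of all features, whose median was 0.120. Birc2, which encodes a ubiquitin ligase of tumour necrosis factor receptor signalling, lay at the reference, at 0.07 ± 0.14 (SD, n = 5) and 0.04 ± 0.10 (SD, n = 5). Birc3, its close relative, lay at −1.41 ± 0.10 (SD, n = 5) and −1.36 ± 0.08 (SD, n = 5), but was well above background on only 4 of 5 WT and 4 of 5 cKO arrays, with Cy5 of 52 to 69.

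Trp53 encodes p53, which induces several of the BH3-only genes. It read −1.36, −1.31, −1.24, −1.44 and −1.23 in WT and −1.56, −1.31, −1.51, −1.43 and −1.40 in cKO. The groups overlapped, with 2 cKO arrays below every WT array. The means were −1.32 ± 0.09 (SD, n = 5) and −1.44 ± 0.10 (SD, n = 5), a difference of −0.12 (SE 0.06, 95% interval −0.26 to 0.01, limma unadjusted p = 0.0747, adjusted p = 0.99995). Its sign turned to 0.06 with slide as a fixed block, and the probe was dim, with Cy5 of 74 to 127.5. With slide as a random block the difference was −0.14. The correlation estimated within a slide was then −0.129, and with a negative value that fit takes out no shared slide effect. Slide and genotype were largely mixed, with 4 cKO arrays on one slide, 3 WT and 1 cKO on another and 2 WT on the last. The fixed-block value therefore rests on the 1 cKO array that shared a slide with WT.

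**Figure D4:**
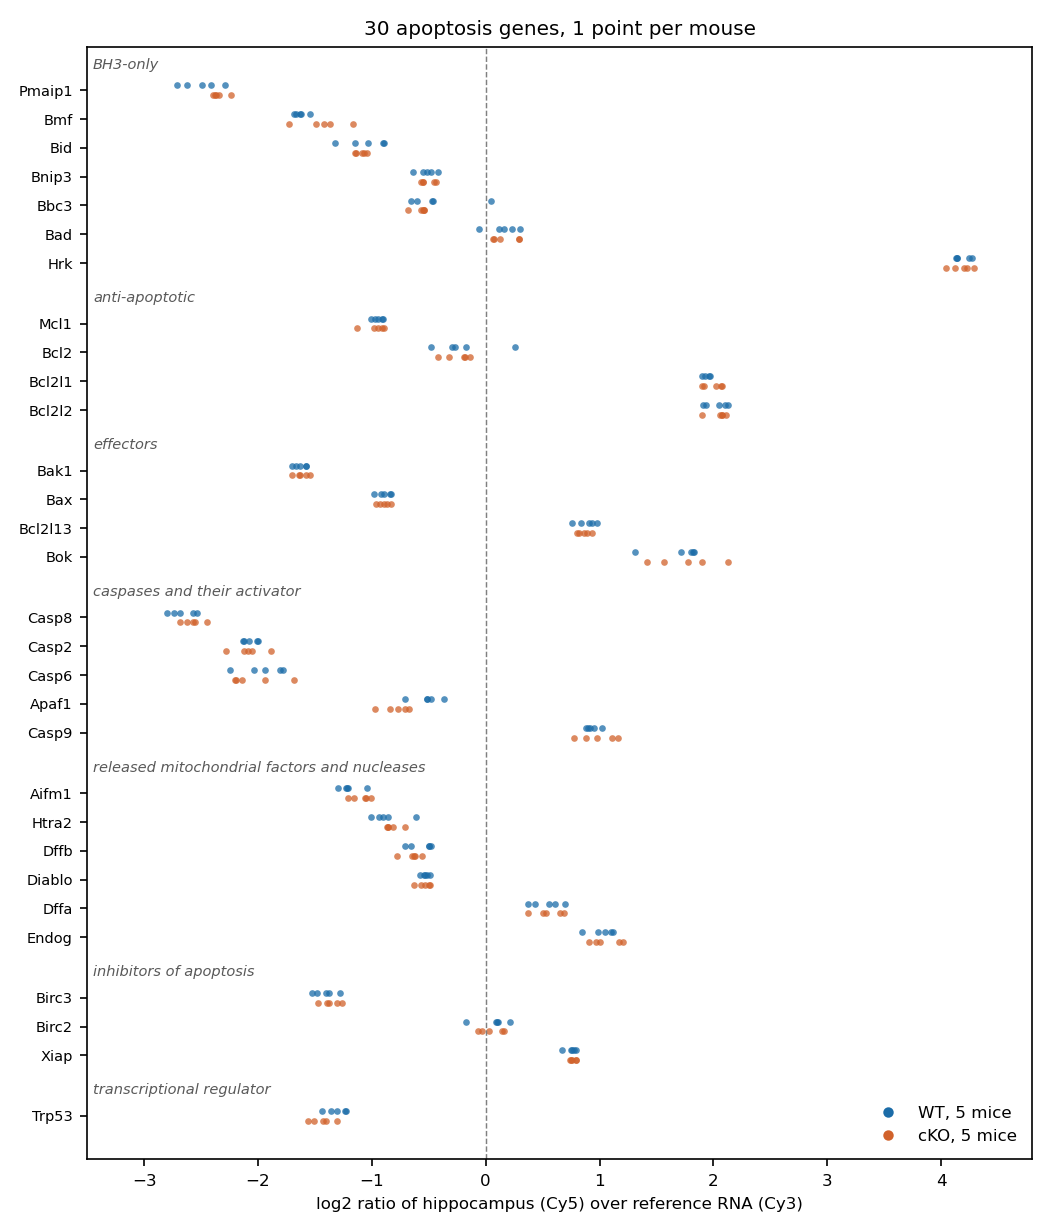
Log2 ratio of hippocampus (Cy5) over reference RNA (Cy3) on the x axis for the 30 measured genes by role (y axis), 1 point per mouse, with WT and cKO in separate colours. Hrk lies at 4.19 in WT and Casp8 at −2.67, and the 2 colours overlap in every gene.

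Against the reference pool, 9 of the 30 genes, 30.0%, were above on every array with a value, where the share of all features was 44.5%. Below on every array were 17 of 30, 56.7%, where the share of all features was 35.5%. The other four, Bad, Bbc3, Bcl2 and Birc2, crossed it. The median WT log ratio was −0.53 for these genes and 0.09 for all features. The genes above were Hrk, Bcl2l1, Bcl2l2, Bok, Bcl2l13, Casp9, Endog, Dffa and Xiap. These ratios describe hippocampus against that pool in fixed dyes, and do not rank the genes by abundance.

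Among arrays of 1 genotype the genes varied about as features in general did, with a median pooled SD of 0.103 beside 0.120. Diablo at 0.046 and Bak1 at 0.056 were close to Xiap and Bax at the even end. Bok at 0.251, Bcl2 at 0.214, Casp6 at 0.208 and Bbc3 at 0.203 were at the other end. In Bok and Bbc3 a single WT array stood away from the other WT arrays.

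For 8 genes more than 1 probe was kept, and 5 of them gave levels more than 0.5 apart. The WT log ratios were 2.02 and 2.73 for Bcl2l2, and −0.95 and −2.98 for Mcl1. They were 1.94 and 0.21 for Bcl2l1, whose second probe was dim at 99.5 to 163 in Cy5. Bnip3 gave −0.52, −0.75 and −1.25, and Dffa gave 0.54, 0.66 and 1.60, where the last probe was the brighter one in Cy5 alone, at 363 to 611 against 253 to 432, and had a difference of 0.12. The sign of the genotype difference differed between probes for Bnip3, at 0.01, −0.01 and −0.02, and for Mcl1, at −0.02 and 0.01. No probe of these 8 genes had an unadjusted p under 0.05 by limma, the smallest being 0.144.

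A wider list of 65 apoptosis genes outside the 32 gave 59 measured genes and 0 at an adjusted p under 0.05 by limma. At an unadjusted p under 0.05 there were 3 with a higher mean in cKO and 1 with a lower one, where the shares of all features were 2.83% and 1.03%. Of the 59, 41 differences, 69.5%, were above 0 and 18 below, and 54.8% of all features were above 0. The median was 0.024, beside 0.008 for all features. Such signs depend on normalization, since median centring moved the median of all features to −0.057. The sign count of this list under that setting is not given here. The smallest unadjusted p belonged to Ngfr, the p75 neurotrophin receptor, with WT at 0.73 ± 0.09 (SD, n = 5) against 0.89 ± 0.05 (SD, n = 5), a difference of 0.17 (SE 0.06, limma unadjusted p = 0.011, adjusted p = 0.99995), which was 0.02 with Cy5 alone. Aifm3, a relative of Aifm1, differed by 0.18 (SE 0.08, limma unadjusted p = 0.0346, adjusted p = 0.99995). The third with a higher mean was Phlda3, listed among p53 regulators and targets, at 0.24 (limma unadjusted p = 0.0355, adjusted p = 0.99995). In the other direction stood Pidd1, a scaffold that activates caspase-2, at −0.12 (SE 0.05, limma unadjusted p = 0.0365, adjusted p = 0.99995), and the cytokine gene Tnf, at −0.08 (SE 0.05, limma unadjusted p = 0.144, adjusted p = 0.99995).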

How the data were processed

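The deposited scanner files hold median spot intensity and local background for both dyes, obtained by the authors with Agilent Feature Extraction 11.0.1.1, per the file headers. They also hold processed intensity and a log10 ratio that this software background-corrected and dye-normalised, per the file headers. The authors' deposited table holds log2 ratios; the submitters' processing notes name limma, with no settings. Its column medians are 0.012 to 0.0204 and its columns correlate at 0.999975 or above with the log ratios computed here.

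Intensities were background-corrected (normexp, offset 50), loess-normalised within arrays and averaged per probe with limma 3.58.1 in R 4.3.3. The offset draws ratios of dim probes towards 0. Median signals were used because the files hold these. Control spots were left out, as were spots flagged as non-uniform or as population outliers. Probes were kept when well above background in Cy5 on 5 or more arrays, and 26581 of 39429 probes were named through RefSeq accessions. The probe with the highest mean log intensity over both channels stood for a gene. Genotypes were compared with lmFit and eBayes on 23574 features, two-sided, with Benjamini-Hochberg adjustment at 0.05, and Map3k12 also with an exact permutation test. The code was tested on simulated data. Full statistics are given for genes that passed or did not overlap and for the 3 smallest unadjusted p in each direction, and 2 in each direction for the wider list. Members and lists were chosen with earlier results of these data known. No sequence or coordinate is given, as no genome of the arrays' build was used here. The number of arrays limits the precision. Alternatives covered background, normalization, filters, probes, slide, replicate block and each array left out.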

Additional observations from a re-analysis of the deposited data

Results flagged for a closer look

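In 4 of 60 groups of arrays 1 array stood apart from the others of its genotype, where chance sets an array apart in about 1 of 20 groups. Bbc3 read 0.05 in WT replicate 5, with the other WT arrays at −0.66 to −0.46. Bbc3 also read −0.68 in cKO replicate 3, with the other cKO arrays at −0.57 to −0.54. Bcl2l2 read 1.90 in cKO replicate 4, with the others at 2.06 to 2.11. Bok read 1.31 in WT replicate 4, with the others at 1.72 to 1.83.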

How the results depend on the processing

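Under 26 alternatives, 0 of the measured members and 0 of the wider apoptosis list passed at an adjusted p of 0.05 by limma. Among these, quantile normalization of average intensity leaves log ratios unchanged, so it could not differ from the main fit. The authors' deposited values were also almost the same as the log ratios used here. With Cy5 alone, all spots in the background fit or plain subtraction, no feature at all passed, so these settings do not set the members apart. Members at an unadjusted p under 0.05 ran from 0 with slide as a fixed block to 5 with array weights. The reported count was 2. Of all 23574 features, 889, 2007 and 911 in turn were under that p. Map3k12 kept its direction in all 26 and lost its call in 4, at −1.17 for Cy5 alone, −1.26 with all spots in the background fit, −1.81 on the slide with both genotypes and −1.79 with plain subtraction; the cause was not tested. With each array left out in turn it ran from −1.46 to −1.31. Trp53 turned to 0.06 on that slide, and Pmaip1 was also 0.06 there. Slide as a fixed block gave the same differences, since only that slide held both genotypes. Both settings therefore rest on 1 cKO array. Median centring moved the median of all features to −0.057, the members' median to −0.085 and the share of higher features at an unadjusted p under 0.05 to 35% from 73.3%; 5 of 30 members were then above 0. That share was 46.9% on the slide with both genotypes, 57.8% with slide as a fixed block and 58.3% for Cy5 alone.

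Over the alternatives Apaf1 ran from −0.35 to −0.19, Bmf from 0.11 to 0.29, Pmaip1 from 0.06 to 0.21, Aifm1 from 0.01 to 0.23 and Bbc3 from −0.24 to −0.03. In the wider list Ngfr ran from 0.02 to 0.29, Aifm3 from 0.09 to 0.37, Pidd1 from −0.38 to −0.08 and Tnf from −0.33 to −0.04. Levels moved with background treatment and normalization, at dim and at brighter probes. With the processed signals the WT log ratio was −3.37 for Casp8, −3.02 for Birc3, −2.22 for Trp53 and −1.08 for Dffb. The reported values were −2.67, −1.41, −1.32 and −0.57 in turn. At brighter probes Bcl2l1 fell to 1.58 from 1.94 and Bax to −1.19 from −0.89, and Bad and Birc2 turned to −0.16 and −0.13. Hrk rose to 4.30 from 4.19 and Dffa stayed at 0.54. Median centring moved Bax to −0.62, Bbc3 to −0.15 from −0.43 and Bnip3 to −0.60 from −0.52. With all probes of a gene averaged, Bcl2l1 was at 0.89 and Mcl1 at −1.96 in WT. The Bcl2l1 value is lowered by WT replicate 2, where the main probe was left out and only the dim second probe entered. Replicate numbers did not pair the arrays, with correlations of deviations from −0.561 to 0.162. With a replicate block Map3k12 was at −1.41 and 1 member, Apaf1, had an unadjusted p under 0.05, as had 609 of 23574 features. Dim probes (Bik, Bcl2l11, Birc3, Trp53, Dffb) limit what the signal can show.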
